A study of Mus musculus with 6 samples.

Results

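Genes that mammalian cells switch on when oxygen is low include receptors that mark mitochondria for removal and brakes on the growth kinase complex mTORC1. The 10 genes proposed for this set are mitophagy receptors, mTORC1 inhibitors and hypoxia-response genes. Membership does not mean that low oxygen raises the transcript. Of the 10, 9 were measured here through 17 probe sets that name only that gene, out of 34945 single-gene probe sets for 18193 genes. The 9 genes are Bnip3, Fundc1, Ddit4, Ddit4l, Ndufa4l2, Higd1a, Fam162a, Mxi1 and Ankrd37. Bnip3l was skipped, because its 3 probe sets also name a pseudogene. The genes were selected on their function and on mutant minus wild-type differences already seen on these arrays, so the differences below are a description and no independent evidence of a direction.

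RNA came from mouse embryo cells at embryonic day 9.0, sorted by flow cytometry for a yellow fluorescent reporter (YFP) that Cre recombinase switches on in the Isl1 lineage, which contributes much of the heart. Mutant (MUT) embryos carried Beta-catenin (loxP ex3), Rosa-YFP and Isl1-cre alleles, so that Cre removes exon 3 of the β-catenin gene and leaves a stabilised protein, the effector of canonical Wnt signalling. Wild-type (WT) cells were sorted for the same reporter, and the labels do not spell out their alleles. Each group has 3 arrays. The Isl1-cre domain is wider than the heart field. The number of embryos behind an array is not stated, so the spread between arrays may be partly technical. MUT array 1 stood apart from the other MUT arrays. On the first principal component over all genes, which held 36.4% of the variance, it scored 1.21, against 33 and 29.4 on MUT arrays 2 and 3 and −21.6 to −20.5 on the WT arrays.

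In low oxygen the prolyl hydroxylases that mark hypoxia-inducible factor (HIF) for destruction slow down, and HIF then binds a short DNA element near its target genes. BNIP3, BNIP3L and FUNDC1 sit in the outer mitochondrial membrane and bind LC3-family proteins, which draws the autophagosome to the mitochondrion (mitophagy). DDIT4, also called REDD1, acts through the TSC1-TSC2 complex to lower mTORC1 activity, and so slows protein synthesis. The remaining genes encode mitochondrial proteins of the low-oxygen response, a partner of MAX that opposes MYC, and an ankyrin-repeat protein.

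The DNA before the start of 3 members is printed because the element that HIF binds has a short core that can be read there. RefSeq (GRCm38.p6) gave 10 start sites for 8 of the members, and Ndufa4l2 is not among them. The windows are the 250 bases before the annotated start, given 5′ to 3′ on the strand of the gene, which is the minus strand for all 3: Bnip3 at chr7:138909507-138909756, Ddit4 at chr10:59951771-59952020 and Fam162a at chr16:36071562-36071811. Capitals mark the cores ACGTG and GCGTG, which read CACGT and CACGC where they lie on the opposite strand.
Bnip3: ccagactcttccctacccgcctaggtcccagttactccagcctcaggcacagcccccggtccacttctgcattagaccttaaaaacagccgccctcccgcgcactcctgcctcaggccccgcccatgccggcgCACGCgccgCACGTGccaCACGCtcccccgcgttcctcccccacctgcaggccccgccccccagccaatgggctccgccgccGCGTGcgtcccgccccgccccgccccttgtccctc
Ddit4: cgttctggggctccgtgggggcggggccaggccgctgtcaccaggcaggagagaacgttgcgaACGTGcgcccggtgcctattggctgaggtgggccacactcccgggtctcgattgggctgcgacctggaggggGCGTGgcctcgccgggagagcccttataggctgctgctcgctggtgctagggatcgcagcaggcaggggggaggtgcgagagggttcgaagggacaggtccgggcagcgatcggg
Fam162a: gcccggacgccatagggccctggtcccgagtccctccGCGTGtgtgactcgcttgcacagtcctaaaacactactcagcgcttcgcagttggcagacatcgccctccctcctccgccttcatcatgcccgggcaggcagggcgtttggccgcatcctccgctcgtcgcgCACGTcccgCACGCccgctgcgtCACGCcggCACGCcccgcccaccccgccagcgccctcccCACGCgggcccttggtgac

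Bnip3 had 5 matches, of which a pair overlap as the palindrome CACGTG, ending 103 bases before the start. Ddit4 had 2 matches and Fam162a had 6, the highest number among the members. Ankrd37 had 4, Higd1a 2 and Ddit4l 1, while Fundc1 had none, and Mxi1 had 1 before each of 2 of its 3 starts. At least 1 match was present in 8 of the 10 member windows, against 38.6% of 32851 windows of the same length. The ACGTG form was in 6 of the 10 member windows, against 16.6% of all windows. The GCGTG form was in the windows of Bnip3, Ddit4, Ddit4l, Higd1a, Fam162a and Ankrd37, against 28.2% of all windows. Mxi1 supplied 3 of the 10 windows. Both cores hold the pair CG and base composition was not matched, so no enrichment is read from these shares. A match is a run of letters and was not tested as a binding site.

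**Figure D1:**
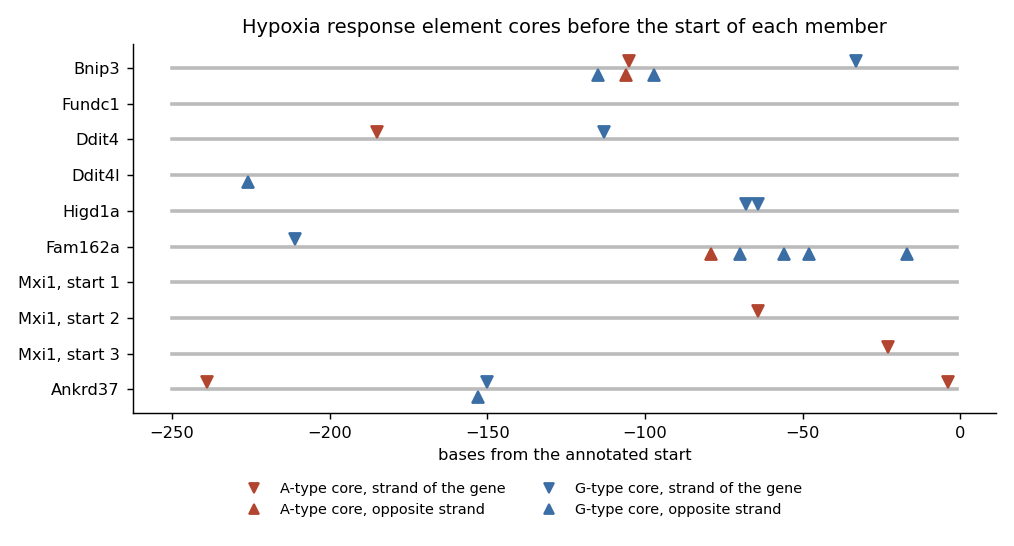
Positions of the cores in the 250 bases before each annotated start (grey line). The x axis is distance in bases from the start, red marks the ACGTG core and blue the GCGTG core, pointing down for the strand of the gene and up for the opposite strand. Fam162a has 6 matches, Bnip3 has 5 and Fundc1 has none.

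Each of the 9 measured members had a higher mean on the MUT arrays, against 44.7% of all 18193 genes. Their median difference, MUT minus WT on the log2 scale, was 0.86 with a range of 0.26 to 2.05, and the median over all genes was −0.03. For 7 of the 9 every MUT array lay above every WT array, which held for 8.64% of all genes. For 0 of the 9 every MUT array lay below, against 9.18% of all genes, and 4 of the 9 differed by at least 1 log2 unit, against 1.08%. In limma's fit over all genes, with Benjamini-Hochberg adjustment, 0 members passed an adjusted p of 0.05 in either direction, where 12 genes (0.0660%) passed as higher and 0 (0%) as lower. At an unadjusted p under 0.05 the fit held 7 members as higher, against 6.76% of all genes, and 0 as lower, against 4.84%. Adjusted p-values of the members in that limma fit ran from 0.0881 for Ndufa4l2 to 0.818 for Ddit4l, and they are given here as a description.

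**Figure D2:**
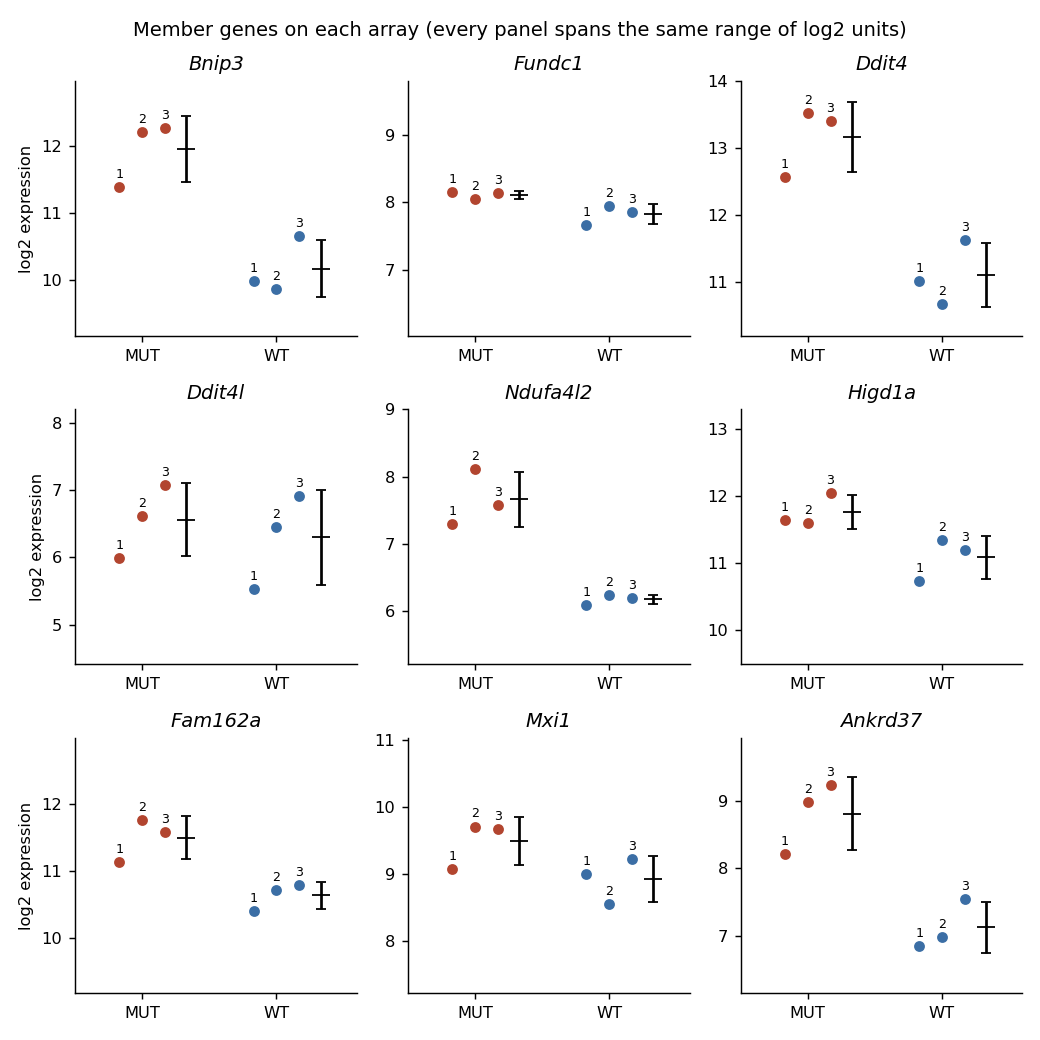
Log2 expression of the 9 members on each array, MUT at the left of each panel and WT at the right, with the replicate number above each point and the mean ± SD (n = 3) beside them. Bnip3, Ddit4, Ndufa4l2 and Ankrd37 show the widest gaps between the groups, and Ddit4l and Mxi1 overlap.

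Of the mitophagy receptors, Bnip3 stood apart by the wider margin. Bnip3 read 11.38, 12.20 and 12.27 on MUT arrays 1, 2 and 3, against 9.99, 9.86 and 10.66 on WT arrays 1, 2 and 3 (log2). The groups did not overlap, and the gap between the lowest MUT and the highest WT array was 0.72. Its means were 11.95 ± 0.50 in MUT and 10.17 ± 0.42 in WT cells (SD, n = 3 each), a difference of 1.78 (SE 0.30) or 3.43-fold. Fundc1, a receptor whose binding to LC3 is set by phosphorylation, had probe sets that went different ways. The probe set with the highest mean (1424215_at) read 8.16, 8.05 and 8.14 on the MUT arrays, against 7.66, 7.95 and 7.86 on the WT arrays, a difference of 0.29 (SE 0.13) with a gap of 0.09 between the groups. Another (1453369_a_at) read 7.94, 7.81 and 7.83 on the MUT arrays, against 7.95, 8.23 and 8.01 on the WT arrays. There the MUT arrays were all lower, by a gap of 0.01, and the difference was −0.20. Signal does not separate these probe sets, whose means were 8.12 and 7.86 in MUT cells and 7.82 and 8.06 in WT cells. The third Fundc1 probe set (1436278_at) differed by 0.50 with overlapping groups, so no direction for Fundc1 holds over its 3 probe sets.

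Among the mTORC1 brakes, Ddit4 had the highest difference of all 9 members. Ddit4 read 12.57, 13.52 and 13.40 on the MUT arrays, against 11.02, 10.68 and 11.63 on the WT arrays. Every MUT array was higher, with a gap of 0.95. The means were 13.16 ± 0.51 in MUT and 11.11 ± 0.48 in WT cells (SD, n = 3 each), a difference of 2.05 (SE 0.32) or 4.16-fold. Ddit4l, its paralogue (REDD2), which also lowers mTORC1 activity, read 5.99, 6.62 and 7.08 on the MUT arrays, against 5.53, 6.45 and 6.92 on the WT arrays. The groups largely overlapped, and the difference was 0.26 (SE 0.39). Without WT replicate 1 it was −0.12, so its sign rests on that array, and without MUT replicate 3 it was 0.01. Its other probe sets differed by −0.07 and 0.34, the second of these from values of 4.13 to 4.76, all under the background level of 4.85 taken from bacterial control probe sets, so that no direction is read from it.

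The mitochondrial members differed in size of difference and in how far their probe sets matched. Ndufa4l2, a relative of the cytochrome oxidase subunit NDUFA4 that is known to restrain respiration in low oxygen, read 7.30, 8.11 and 7.58 on the MUT arrays, against 6.09, 6.23 and 6.19 on the WT arrays. The WT arrays spanned only 0.15 and the MUT arrays 0.80, and the gap of 1.07 between the groups was the widest of any member probe set. The difference was 1.49 (SE 0.21) or 2.81-fold. Fam162a, a mitochondrial protein linked to cell death in low oxygen, read 11.14, 11.76 and 11.59 on the MUT arrays, against 10.41, 10.72 and 10.79 on the WT arrays. Its groups did not overlap for either probe set, with differences of 0.86 (SE 0.19) and 0.61.

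Higd1a, a small inner-membrane protein that associates with the respiratory chain, read 11.64, 11.60 and 12.05 on the MUT arrays, against 10.73, 11.34 and 11.20 on the WT arrays, a difference of 0.67 (SE 0.20). The other Higd1a probe sets gave similar differences of 0.78 and 0.71 but ordered the arrays in another way. On 1448359_a_at the MUT arrays read 9.60, 10.65 and 9.58 and the WT arrays 9.87, 9.22 and 8.62. WT array 1 was thus the highest WT array on that probe set and the lowest on 1416480_a_at, and the groups overlapped. On 1416481_s_at, a class of probe set that can match more than a single gene, the MUT arrays read 9.82, 10.71 and 9.51 and the WT arrays 9.76, 9.29 and 8.66.

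The nuclear members were Mxi1 and Ankrd37. Mxi1, which competes with MYC for MAX, read 9.08, 9.71 and 9.68 on the MUT arrays, against 9.0, 8.55 and 9.23 on the WT arrays, a difference of 0.57 (SE 0.24). MUT array 1 lay below WT array 3, so the groups overlapped. Its second probe set did not overlap, with a difference of 0.76 and a gap of 0.12. Ankrd37, an ankyrin-repeat protein of poorly known function whose gene is a HIF target, read 8.21, 8.99 and 9.25 on the MUT arrays, against 6.84, 6.98 and 7.55 on the WT arrays. The groups were separated by 0.65, and the difference was 1.69 (SE 0.30) or 3.23-fold.

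**Figure D3:**
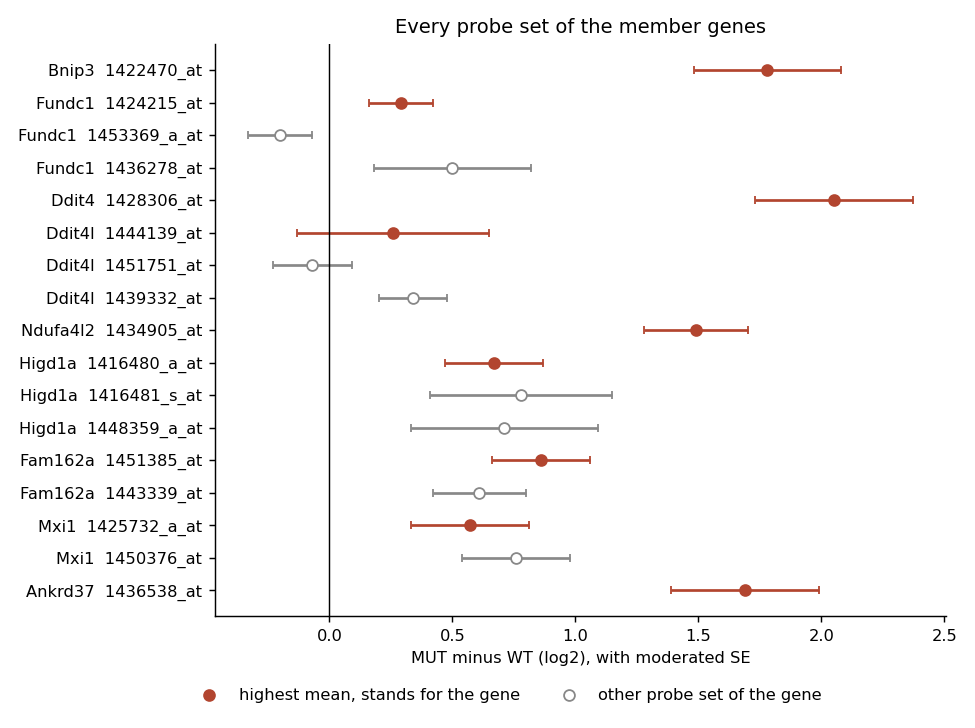
MUT minus WT difference (log2) of the 17 member probe sets, with moderated standard errors from a fit of every single-gene probe set; filled points mark the probe set that stands for the gene. The difference is above 0 for 15 of the 17 and below 0 for a Fundc1 and a Ddit4l probe set.

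Over the 17 probe sets, 15 had a higher MUT mean, against 45.2% of all single-gene probe sets. The MUT arrays were all higher for 10 of the 17 (8.45% of all), all lower for 1 (9.04% of all), and overlapped the WT arrays for 6. The Ddit4l probe set under background is among the 15 and the 10. Probe sets of a gene share its transcript and are not replicates.

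MUT array 1, which lay nearer to the WT arrays than the other MUT arrays did on the first principal component, also read low for most members. It was the lowest of the MUT arrays for 7 of the 9 members, as it was for 52.9% of the 1571 genes whose MUT arrays were all higher. Fundc1 and Higd1a instead had MUT array 2 lowest. WT array 3 was the highest WT array for 6 of the 9, against 33.4% of those genes, and WT array 2 was the highest for Fundc1, Ndufa4l2 and Higd1a. Relative to the WT mean, Bnip3 stood at 1.20 on MUT array 1 and at 2.03 and 2.10 on MUT arrays 2 and 3. Ankrd37 stood at 1.08, 1.86 and 2.12 and Ddit4 at 1.47, 2.41 and 2.29. Mxi1 stood at 0.16 on MUT array 1 and at 0.79 and 0.76 on the others. Without MUT replicate 1, 4 of the 9 members passed an adjusted p of 0.05 as higher in the limma fit, against 0.445% of all genes, and 0 as lower, against 0.0605%. These were Bnip3 (2.06, adjusted p = 0.0387), Ddit4 (2.35, adjusted p = 0.0372), Ndufa4l2 (1.67, adjusted p = 0.0365) and Ankrd37 (1.99, adjusted p = 0.0379). Leaving out any other array gave 0 members passing. Over 15 alternative settings the adjusted p-values of these 4 genes ran up to 0.391, 0.336, 0.256 and 0.403 in the order named.

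**Figure D4:**
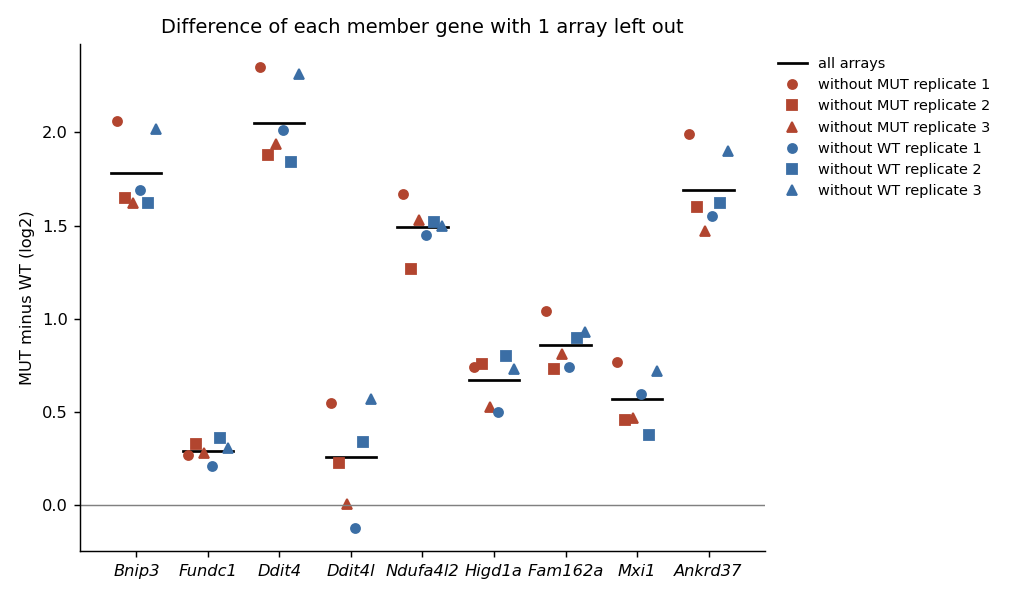
MUT minus WT difference (log2) of each member with all arrays (black line) and with each array left out in turn (red for a MUT array, blue for a WT array). Differences of Bnip3, Ddit4, Ndufa4l2 and Ankrd37 are highest without MUT replicate 1, and Ddit4l alone goes below 0, without WT replicate 1.

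Likeness to Bnip3 was measured as the root mean square difference over the 6 arrays, each gene set relative to its own WT mean, among 14125 genes above background. Ankrd37 was the closest at 0.118 log2 units. Next were Maff, a small MAF transcription factor, at 0.200, P4ha2, a collagen prolyl hydroxylase, at 0.205, Ddit4 at 0.214, and Pde4b, a cAMP phosphodiesterase, at 0.242. Ankrd37 and Ddit4 are members, and because the members were selected on MUT minus WT differences, which enter this measure, their nearness to Bnip3 was largely set by that choice. Ndufa4l2 ranked 21 at 0.378, with Fam162a at rank 170 and Higd1a, Mxi1, Ddit4l and Fundc1 further away.

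Further genes known to be induced by low oxygen, outside the member set, were also measured. MUT means were higher for 31 of 32, against 44.7% of all genes, with a median difference of 1.11. Of these 32, 4 rose in the limma fit over all genes, against 0.0660% of all genes, while 0 fell and 28 did not pass. The list, like the members, was chosen with earlier results of these data known, so it is no independent evidence of a direction. Ndrg1, a stress-response protein, rose by 3.46 (SE 0.38, adjusted p = 0.0489), reading 10.12, 10.71 and 10.70 on the MUT arrays, against 6.35, 6.87 and 7.92 on the WT arrays. Pfkp, a phosphofructokinase, rose by 2.65 (adjusted p = 0.0371), and the secreted proteins Stc2 and Adm rose by 2.63 and 1.84 (adjusted p = 0.0489 for each). Pfkfb4, named after its value was seen, was the exception in sign at −0.15. Leaving out an array moved the number of genes called higher over the whole table from 12 to between 0 and 81, so each of these calls depends on which arrays enter.

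Mitophagy genes outside the member set had a median near 0. Of 17 measured, 7 had higher MUT means, against 44.7% of all genes, and 0 passed the limma fit, the median being −0.01. At an unadjusted p under 0.05 in that fit 2 were higher, against 6.76% of all genes. Pink1, the kinase that marks depolarised mitochondria, stood at 0.65 (SE 0.17, adjusted p = 0.250). It read 10.07, 9.91 and 9.86 on the MUT arrays, against 9.64, 9.08 and 9.17 on the WT arrays, without overlap. Tbk1, which phosphorylates mitophagy adaptors, stood at 0.32 and Mul1, a mitochondrial ubiquitin ligase, at −0.29. With the most variable probe set standing for each gene, 12 of the 17 were higher.

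Core autophagy genes went both ways, with 14 of 26 higher, 0 passing the limma fit, and a median of 0.04. Before adjustment, 2 were higher and 2 lower at a p under 0.05 in that fit, against 6.76% and 4.84% of all genes. The WIPI proteins, which bind phosphoinositide on the forming autophagosome, stood at opposite signs: Wipi1 at 0.90 (SE 0.16, adjusted p = 0.140) and Wipi2 at −0.48. Wipi1 read 8.37, 8.88 and 8.63 on the MUT arrays, against 7.73, 7.63 and 7.81 on the WT arrays. Wipi2 read 7.87, 7.69 and 8.07 on the MUT arrays, against 8.20, 8.52 and 8.37 on the WT arrays, so neither gene's groups overlapped. Atg2a, a lipid transfer protein, stood at −0.57.

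Other genes of the mTORC1 pathway were higher in 18 of 31, 0 passed the limma fit, and the median was 0.05. Before adjustment 3 were higher and 1 lower at a p under 0.05, against 6.76% and 4.84% of all genes. Prkaa2, a catalytic subunit of the energy sensor AMPK, stood at 0.74 (SE 0.21). Eif4ebp1, the translation repressor that mTORC1 phosphorylates, stood at 0.84 (SE 0.25) and read 9.41, 10.43 and 10.08 on the MUT arrays, against 9.15, 9.26 and 8.97 on the WT arrays. Rhebl1, a relative of the mTORC1 activator RHEB, stood at 0.45. The 1 that was lower was Depdc5, an mTORC1 inhibitor, at −0.43 (SE 0.14), and its groups did not overlap. Depdc5 was named after its value was seen.

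Ddit4 is also induced by glucocorticoids, by p53 and by ATF4, so mediators and targets of those were read beside it. Of 14 measured, 8 were higher and 0 passed the limma fit, with a median of 0.04. At an unadjusted p under 0.05 in that fit 5 were higher, against 6.76% of all genes. The 3 with the smallest p belong to the ATF4 and integrated stress response: Chac1 (adjusted p = 0.131), Trib3 at 1.75 and Ddit3 at 0.78. Chac1 read 5.92, 7.5 and 7.53 on the MUT arrays, against 4.69, 4.32 and 4.35 on the WT arrays. All 3 WT values were under background, so the difference is a bound: against the background level, Chac1 was at least 4.4-fold higher in MUT cells. Asns, an ATF4 target, at 0.68 and Ccng1, a p53 target, at 0.36 complete the 5. Atf4 itself stood at 0.05. The other p53 genes read, Mdm2, Cdkn1a and Trp53inp1, stood at −0.19, −0.22 and −0.05. The glucocorticoid genes Nr3c1, Tsc22d3, Zbtb16, Fkbp5 and Per1 stood at −0.23, −0.13, −0.14, 0.02 and 0.16. Genes of this list beyond the 3 with the smallest p were named after their values were seen.

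Paralogues of the mitochondrial members and of Fundc1 lay between −0.41 and 0.24. Ndufa4 stood at −0.04, Higd2a at 0.17, Fundc2 at 0.24, Fam162b at −0.41, and Higd1b was at background. Cox4i2, the cytochrome oxidase isoform known to be raised by HIF, stood at 1.0 (SE 0.17, adjusted p = 0.140), beside −0.03 for the usual isoform Cox4i1. Cox4i2 read 6.89, 7.44 and 7.22 on the MUT arrays, against 6.15, 6.34 and 6.04 on the WT arrays, with no overlap. Lonp1, a mitochondrial protease, stood at 0.32. In all, 4 of the 8 measured were higher and 0 passed, with 1 higher at an unadjusted p under 0.05, and their median was 0.07. Among 12 genes of the MAX network beside Mxi1, 4 were higher and 0 passed, with 1 higher at an unadjusted p under 0.05 and a median of −0.03. Over all genes, 6.76% were higher at that unadjusted p in the limma fit. Mga stood at 0.35 and Mxd3 at −0.18, and Mlxipl was at background. The number higher in that network was 7 without WT replicate 3 and 2 with the most variable probe set.

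**Figure D5:**
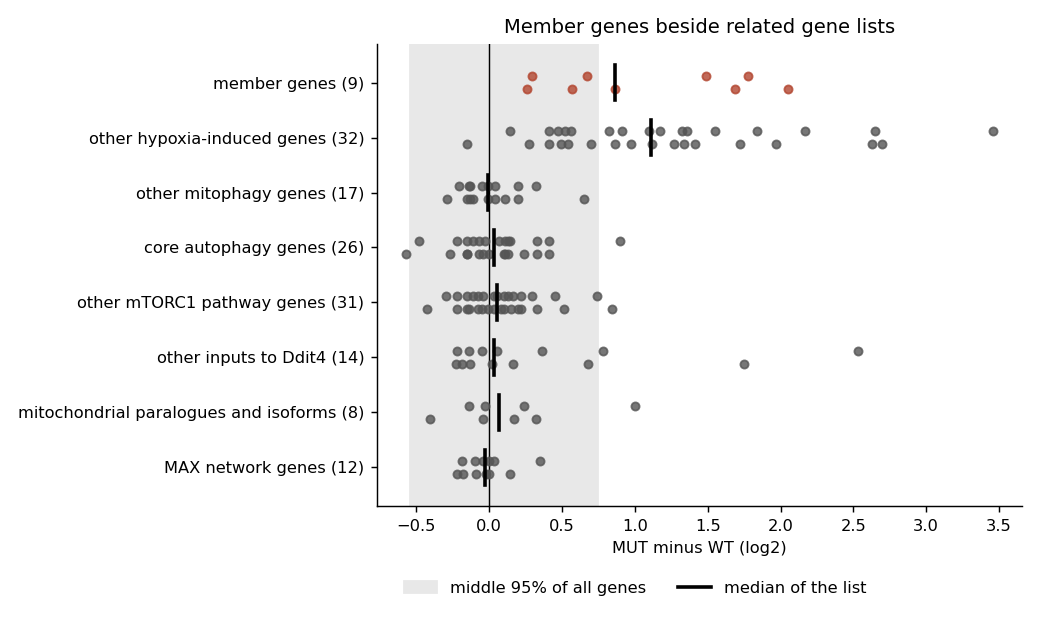
MUT minus WT difference (log2) of each gene in the member set and in 7 related lists, with the number measured in brackets; thick bars are list medians, and the grey band, from −0.55 to 0.75, holds the middle 95% of all genes. Medians are 0.86 for the members and 1.11 for the other hypoxia-induced genes, and lie between −0.03 and 0.07 for the other lists. Members and lists were chosen with earlier results of these data known.

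Markers of other cell types differed between the groups too, and in bulk RNA a change in the number of cells of a type cannot be told apart from a change in RNA per cell. Endothelial markers had higher MUT means in 8 of 8, against 44.7% of all genes. Their summed level (log2 of the summed linear values) was 11.48 to 11.95 on the MUT arrays and 10.70 to 11.48 on the WT arrays. Neural crest markers were higher in 5 of 6, at 12 to 12.22 in MUT and 11.15 to 11.56 in WT cells. Surface ectoderm markers were higher in 7 of 7, at 12.63 to 13.53 in MUT and 11.97 to 12.61 in WT cells. Primitive erythroid markers were higher in 0 of 7, at 15.11 to 15.68 in MUT and 15.38 to 15.57 in WT cells. No measured marker of these 4 types was at background. Cardiac progenitor markers were higher in 4 of 10, at 10.77 to 11.09 in MUT and 11.33 to 11.55 in WT cells. Isl1 read 7.49 to 8.72 on the MUT arrays and 9.24 to 9.77 on the WT arrays, and Nkx2-5 was at background. Of cardiomyocyte, macrophage, neural and visceral endoderm markers, 2 of 8, 2 of 7, 0 of 7 and 1 of 6 had higher MUT means. The sexes were not balanced between the groups. The Y-linked Kdm5d read 8.67, 9.92 and 9.08 on the MUT arrays, against 9.84, 2.82 and 3.52 on the WT arrays. Xist, the RNA of the inactive X chromosome, read 12.13, 7.54 and 12.44 on the MUT arrays, against 5.46, 12.63 and 12.79 on the WT arrays. MUT arrays 1 and 3 thus read high for both genes, as RNA from a mix of male and female embryos would. WT array 1 alone of the WT arrays was high for Kdm5d and low for Xist. Of the members, only Fundc1 is X-linked. The 3′ minus 5′ difference of control probe sets, a sign of RNA quality, was 1.04 to 1.38 in MUT and 1.09 to 1.53 in WT cells for Gapdh and −0.02 to 0.04 in MUT and −0.01 to 0.15 in WT cells for Actb. For Tfrc it was −1.69 to −1.41 in MUT and −1.49 to −1.23 in WT cells. The part of cell types, sex and RNA quality in the members' differences was not tested.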

How the data were processed

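Per the labels' protocols, Trizol was used for extraction of total RNA, which was amplified from small inputs, labelled with biotin and hybridised to 6 Affymetrix arrays. The authors deposited log2 values for 45101 probe sets on every array, and the base was inferred from their range, 1.89 to 15.07. How they corrected background, summarised and normalized is not stated, and these steps set which shifts can be seen. Array medians lay between 6.47 and 6.50, so no further scaling was applied. If the authors aligned the arrays, a shift shared by most genes was removed.

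Probe sets were named through the platform annotation, with symbols updated through a RefSeq table (34741 of 34945 matched); 932 naming several genes, 9160 unnamed here and 64 controls were left out. The probe set with the highest mean stood for a gene. Background, 4.85, is the 95th percentile of 27 bacterial control probe sets. MUT and WT were compared with limma 3.58.1 in R 4.3.3 (lmFit, eBayes, two-sided, 4 residual and 3.45 prior degrees of freedom), adjusted over 18193 genes. The code was also run on simulated arrays of independent genes, where shifts put in came back on average. That checks the code and not the differences reported here. With 3 arrays a group, the smallest two-sided p of an exact permutation test is 0.1, so none was run. Motifs were searched with Python 3.11.15.

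Members and gene lists were chosen with earlier results of these data known. Genes named were all members, the 3 of each related list with the smallest p and any that passed, and the 5 genes most like Bnip3. Ndufa4, Higd2a, Fam162b, Higd1b and Cox4i1 were named outside that rule, as paralogues or isoforms. Pfkfb4, Depdc5 and the genes read beside Ddit4 other than the 3 with the smallest p were added after their values were seen. Of the cell markers, lists whose summed level moved were reported, with erythroid, cardiac progenitor and sex-linked markers beside them. Alternatives are given at the end. The number of arrays limits the precision.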

Additional observations from a re-analysis of the deposited data

How the results depend on the processing

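Members were refitted under 15 alternatives, 6 of which left out an array. Of 135 member differences, 134 kept the sign. The exception was Ddit4l without WT replicate 1, at −0.12, and the cause was not tested. Much of that count was fixed in advance. Alternatives that alter only the variance, the block or the set of features adjusted over leave a difference as it was. Nor can leaving out an array reverse the sign of a member whose groups do not overlap. With an array left out Ddit4l ran from −0.12 to 0.57. The number of members called higher was 0 in every alternative except the fit without MUT replicate 1, and ran from 0 to 4 over the fits that leave out an array. The number called lower was 0 throughout. Member probe sets with a higher MUT mean numbered 14 to 16 over those fits, and 15 with quantile normalization or with array medians subtracted. Over all genes, 12 were called higher with all arrays, 6 with array medians subtracted, 1 with the most variable probe set, 1 with the mean over probe sets, and 0, 2, 4 or 81 with an array left out. Genes called lower numbered 0, or 11 without MUT replicate 1.

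With replicate number as a block, 0 genes were called higher over all genes, against 12 without it, and 0 members in both fits. The labels do not say that a number marks a shared day or litter. Deviations of same-numbered arrays correlated at 0.108, −0.0751 and −0.0161, so the numbers were not taken to pair the samples. Only for replicate 1 was this above the highest value with another number, −0.0527. Array 1 of each group read low for Afp, a visceral endoderm marker, at 2.6 in MUT and 4.08 in WT. The other arrays read 9.46 to 11.52. Ttr and Apoa1 were also lowest on array 1 within each group, while Apob, Amn and Cubn were not in both. Whether replicate 1 shares a collection feature was not tested.

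Over the 17 gene lists, 235 of 255 counts of members with a higher MUT mean stayed within 1.5 times the count with all arrays, and 20 did not. Alternatives that alter only the variance or the block, and the fit of every probe set, could not move a count. The share that stayed is therefore no measure of stability. With 3 arrays a group, differences the size of those of Fundc1 or Ddit4l are within 3 SE of 0, and a missed threshold does not show that the groups are alike.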
